A study of Mus musculus with 27 samples.

Results

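The genes described here encode 9 transcription factors that set or hold macrophage identity: the C/EBP factors Cebpa, Cebpb, Cebpd and Cebpg, the large MAF factor Maf, the ETS factor PU.1 (gene Spi1), the paired repressors Bhlhe40 and Bhlhe41, and Runx1. They were taken by symbol from a table of 45070 genes, and all 9 were present. The samples were wild-type bone marrow-derived macrophages (BMDMs), primary cells grown in culture from the marrow of young male C57/BL6 mice. All cultures, the untreated ones included, had 1 h of DMSO alone beforehand. Stimulation was with lipopolysaccharide (LPS) at 10 ng/ml or with the cytokine interleukin-4 (IL-4) at 10 ng/ml, and lasted 0.5, 1, 2 or 4 h. Each of the 9 groups had 3 samples. No source used here says that the 3 samples came from separate mice or cultures, so the p-values cover only the spread between them. All comparisons with untreated cells share the same 3 untreated samples, and no untreated sample was kept to the later times.

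C/EBP factors are bZIP proteins that bind DNA as dimers. C/EBPα drives myeloid commitment in progenitors, C/EBPβ and C/EBPδ are best known as factors induced by inflammatory signals, and C/EBPγ lacks a strong activation domain and pairs with the others. PU.1 opens and holds macrophage enhancers together with C/EBP and RUNX factors, and c-MAF is linked to the quiescent, tissue-repairing state and to Il10. BHLHE40 and BHLHE41 bind E-box sequences as repressors and also act in the circadian clock. LPS is sensed by TLR4 and activates NF-κB and MAP kinases, whereas IL-4 acts through JAK kinases and STAT6.

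The measurement was chromatin-associated RNA, which is rich in transcripts that are still being made. Values are read counts per gene, normalised by the authors on invariant genes and rounded, and are called normalised read counts. Their depth is unknown, so no counting interval can be given. The total per sample was 2469768 to 2790981 in untreated and IL-4 samples and 3571492 to 4058199 in LPS samples. Tests covered the 13901 genes whose value reached 10 in 3 or more of the 27 samples, and all 9 factors were among them. Cebpa, Cebpb, Cebpd, Bhlhe40 and Bhlhe41 met this limit only through the groups in which they are high, so their passing is no evidence of a change. The 8 listed macrophage markers were detected in every sample and summed to between 10217 and 18511. Adgre1 carried much of the sum (4051 to 12142), while others went well below their untreated range in some stimulated samples, as Csf1r did from 1814 to 2052 down to 427, Lyz2 from 842 to 1054 down to 221 and Fcgr1 from 45 to 87 down to 19. Cd3e, Cd3g, Ly6g, Xcr1, Hbb-bs, Hbb-bt and Cma1, defining genes of other blood cells, were at 0 in every sample. In the 4 other lists with the largest sums the highest value was found after LPS, at 253 for 5 stromal and endothelial genes, 99 for 5 dendritic cell genes, 91 for 8 neutrophil genes and 70 for 7 T and NK cell genes, and their part in the results was not tested. In these bulk samples, fewer cells of a type and less RNA per cell cannot be told apart.

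In the deposited scaling the median gene was at −0.24 to −0.30 on the log2 scale after LPS against untreated cells. This shift depends on the scaling: it was −0.73 to −0.91 with equal totals and −0.01 to −0.06 with median-of-ratios factors. Changes after LPS are therefore also given relative to the median gene of the same time. Among all tested genes 19.6% to 26.9% were called higher and 34.4% to 39.0% lower at the 4 LPS times. Rescaled to equal totals these shares were 11.7% to 17.5% and 52.2% to 57.4%, and rescaled by median-of-ratios factors 25.4% to 32.0% and 27.4% to 32.9%. For IL-4 they were 8.15% to 14.3% higher and 8.14% to 13.2% lower, and with equal totals 6.73% to 14% and 12.2% to 14.7%.

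In untreated cells Maf had the highest level per kilobase (kb) of gene span, at 152 normalised read counts per kb (112 to 202 over the 3 samples). Runx1 followed at 25.2 (24.6 to 25.9) and Spi1 at 14.2 (13.4 to 15.1). Cebpd at 8.11 and Cebpg at 7.39 overlapped in their ranges, as did Cebpb at 3.29 and Bhlhe41 at 2.74. Cebpa stood between these pairs at 4.55, and Bhlhe40 was lowest at 0.635 (0.476 to 0.794). The order of the first 3 depends on the length used: per kb of exon it was Runx1 at 767, Spi1 at 296 and Maf at 152. On that scale Cebpg at 15.9 (13.8 to 18.1) also lay above Cebpd at 8.11 (7.52 to 8.41), with no overlap. Whether introns were counted was not given in the sources used here, so neither scale is preferred.

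After LPS all 9 factors passed the moderated F test over the course, as did 87.6% of all tested genes. Spi1, Cebpb, Cebpd and Bhlhe40 had a rise as their largest change, and Cebpa, Cebpg, Maf, Bhlhe41 and Runx1 a fall. With median-of-ratios factors the largest change of Runx1 was a rise (0.91). At 0.5 h 8 of 9 factors were called (4 higher, 4 lower) against 53.9% of all genes, and at 1 h 9 of 9 (5 higher, 4 lower) against 63.8%. At 2 h 7 of 9 were called (2 higher, 5 lower) against 65.9%, and at 4 h 7 of 9 (3 higher, 4 lower) against 63.5%. After IL-4 8 of 9 factors passed the F test against 40.3% of all genes, and Maf did not (adjusted p = 0.0638), though it did without replicate 1 or with a replicate block. Only Bhlhe40 had a rise as its largest change, though without replicate 1 that of Cebpg was a rise too (0.44). The calls numbered 3 of 9 at 0.5 h against 16.3% of all genes, 5 of 9 at 1 h against 21.0%, 6 of 9 at 2 h against 27.6% and 4 of 9 at 4 h against 25.9%. These counts rest on few samples: without replicate 2 the LPS count at 1 h was 3 and the IL-4 course count 3, which it was without replicate 3 as well, and the lowest IL-4 counts were 1, 1, 2 and 1 at the 4 times, the first 2 without replicate 3, the next without either and the last without replicate 2.

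**Figure D1:**
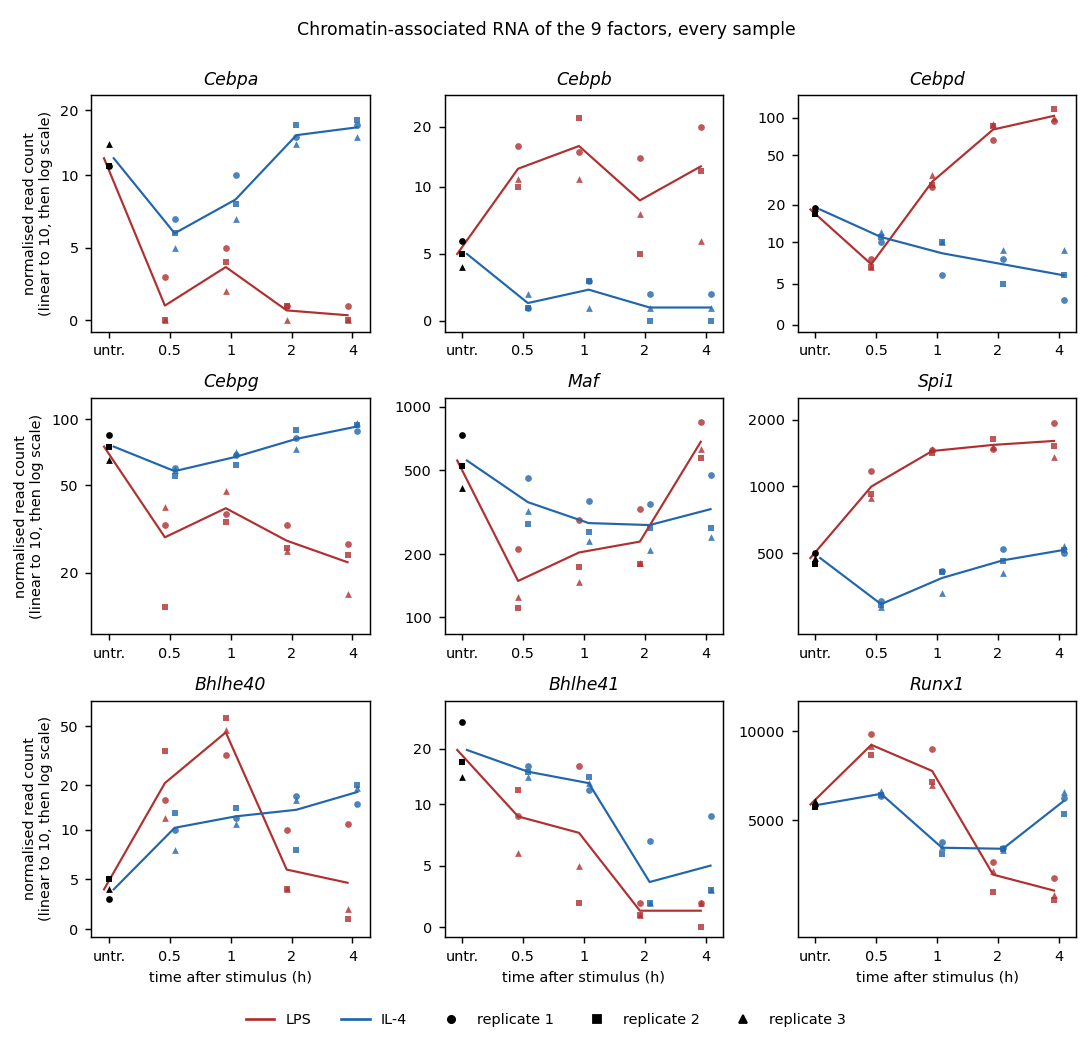
Normalised read counts of each factor (vertical axes, linear up to 10 and logarithmic above) in untreated cells and over the 4 times after LPS (red) or IL-4 (blue). Marker shapes are replicates and lines join group means. At LPS 4 h Spi1 and Cebpd lie above all untreated samples and Cebpa, Cebpg, Bhlhe41 and Runx1 below them, while the Cebpb samples overlap them.

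In what follows the values of replicates 1, 2 and 3 are separated by slashes, the successive times are 0.5, 1, 2 and 4 h in that order, fold changes are on the log2(value + 1) scale, which understates those of low genes, and adjusted p values come from limma with Benjamini-Hochberg adjustment over all 13901 genes.

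Among the C/EBP genes, Cebpa nearly disappeared from chromatin RNA after LPS and Cebpg fell with it. The 2 genes are neighbours on chromosome 7. Cebpa (GRCm38, chromosome 7, 35119293 to 35121928, + strand) and Cebpg (chromosome 7, 35046422 to 35056566, − strand) point away from each other with 62.7 kb between their start sites. Their promoters, from 250 bases before to 50 bases after the RefSeq start (GRCm38.p6), are shown because these genes moved together. That of Cebpb is shown beside them because it moved the other way. Capitals mark matches to a TATA box (TATAAA, which 13.6% of 32851 promoters of this length hold) and to the cAMP response half-site TGACG, searched on both strands (20.8%).
Cebpa, chr7:35119043-35119342, + strand: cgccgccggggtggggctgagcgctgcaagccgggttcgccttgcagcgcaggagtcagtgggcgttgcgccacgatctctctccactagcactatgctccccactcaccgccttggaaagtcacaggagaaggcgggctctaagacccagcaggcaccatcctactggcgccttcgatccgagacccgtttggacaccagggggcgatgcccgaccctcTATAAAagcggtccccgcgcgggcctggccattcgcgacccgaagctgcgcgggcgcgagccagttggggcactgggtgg
Cebpg, chr7:35056517-35056816, − strand: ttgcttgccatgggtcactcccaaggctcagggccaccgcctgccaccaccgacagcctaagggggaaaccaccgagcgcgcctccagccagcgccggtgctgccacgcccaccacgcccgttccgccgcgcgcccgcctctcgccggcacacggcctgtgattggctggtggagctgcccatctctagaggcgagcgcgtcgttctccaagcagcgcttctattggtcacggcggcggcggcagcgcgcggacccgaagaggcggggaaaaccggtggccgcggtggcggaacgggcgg
Cebpb, chr2:167688665-167688964, + strand: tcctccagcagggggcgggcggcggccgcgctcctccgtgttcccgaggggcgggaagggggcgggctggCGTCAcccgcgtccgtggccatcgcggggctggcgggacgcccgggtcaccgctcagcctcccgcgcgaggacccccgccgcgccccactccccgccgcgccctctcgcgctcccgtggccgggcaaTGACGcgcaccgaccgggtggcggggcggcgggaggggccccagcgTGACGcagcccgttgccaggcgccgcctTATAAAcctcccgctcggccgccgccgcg

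With the start counted as 0, the TATAAA of Cebpa lay at −30 to −25 and that of Cebpb at 21 to 26, after the annotated start. The Cebpb window held 3 half-sites and the Cebpg window held none of the motifs searched. These were TTGCGCAA and TTGCNNAA for C/EBP, held by 0.183% and 10.8% of promoters, TGACGTCA (1.79%), TGANTCA for AP-1 (7.81%), GAGGAA and GAGGAAGT for PU.1 (28.3% and 3.2%), CACGTG and CANNTG E-boxes (7.15% and 72.3%, the first being a case of the second), TGTGGT for RUNX (16.8%), TTCNNNGAA for STAT (8.3%), and the NF-κB (8.46%) and STAT6 (6.95%) consensus. A match is a description of letters and not of a bound site. The promoter table held windows for 5 of the 9 factors.

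Cebpa held 11/11/14 normalised read counts in untreated cells. After LPS it held 3/0/0, 5/4/2, 1/1/0 and 1/0/0 at the 4 successive times. All 12 LPS values lay below all 3 untreated values. The log2 changes were −3.03, −1.53, −3.03 and −3.36 (SE 0.53, adjusted p = 0.00021, 0.0205, 0.000133 and 5.01e-05), and relative to the median gene −2.78, −1.22, −2.74 and −3.10. At 0.5, 2 and 4 h the LPS samples were at or under 3, so the fitted change depends on the pseudocount, and at 4 h it ranged from −4.11 to −1.26 over 10 alternatives. Against a floor of 3 normalised read counts per sample the untreated mean of 12 was 4-fold higher. The small recovery from 0.5 to 1 h (1.5, adjusted p = 0.0292) and the loss from 1 to 2 h (−1.5, adjusted p = 0.0327) both passed. The call at 1 h was lost without replicate 2 (−1.66) or replicate 3 (−1.13), after median-of-ratios rescaling (−1.31, adjusted p = 0.0542), with a pseudocount of 0.5 (adjusted p = 0.0655) and with no filter on low values (adjusted p = 0.054), with adjusted p between 0.000271 and 0.186 over the alternatives, and both steps were lost without either replicate (0.5 to 1 h: 1.08 and 1.45, 1 to 2 h: −1.58 and −1.45).

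After IL-4 Cebpa dipped and came back. It held 7/6/5, 10/8/7, 15/17/14 and 17/18/15 at the 4 successive times. The fall at 0.5 h passed (−0.89, SE 0.20, adjusted p = 0.00682) and so did the rise from 1 to 2 h (0.82, adjusted p = 0.0207). The samples at 4 h lay above all untreated samples, by 0.45, and did not pass (adjusted p = 0.126). Without replicate 2 or 3 the change at 0.5 h was −0.95 or −0.68 and the step 0.72 or 0.77, and neither was called (adjusted p over the alternatives 0.0025 to 0.21 for the former).

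Cebpg was higher and its course resembled that of Cebpa. Untreated cells held 85/75/65. After LPS the values were 33/14/40, 37/34/47, 33/26/25 and 27/24/16 at the 4 successive times, all below the untreated range. It fell at all 4 times, by −1.46, −0.92, −1.39 and −1.73 (SE 0.32, adjusted p = 0.00129, 0.0202, 0.0013 and 0.000218), and relative to the median gene by −1.21, −0.61, −1.11 and −1.47. The call at 1 h was lost without replicate 1 (−0.79) or 2 (−0.82) and when rescaled by median-of-ratios factors (−0.66), with adjusted p between 0.000645 and 0.0971 over 11 alternatives. IL-4 samples held 60/55/59, 69/62/71, 82/89/73 and 88/94/96 at the 4 times. For Cebpg the F test after IL-4 passed (adjusted p = 0.00367) but no single time did, with −0.36 at 0.5 h (adjusted p = 0.0533, or −0.48 and 0.0119 with equal totals) and 0.31 at 4 h (adjusted p = 0.0696). Without replicate 1 that at 4 h was 0.44 and passed (adjusted p = 0.0388, range over the alternatives 0.0388 to 0.501). Over the 9 group means of log2(value + 1), Cebpa and Cebpg had a Pearson r of 0.993, the highest of any pair of the 9 factors. The 9 points share libraries and scaling, and the r is a description. The protein-coding gene Gm45095, on the other strand, overlaps the start of Cebpg and was too low to be tested.

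Cebpb moved in opposite directions under the 2 stimuli, at low levels. Untreated cells held 6/5/4. LPS samples held 16/10/11, 15/22/11, 14/5/8 and 20/12/6 at the 4 successive times, and those at 2 and 4 h overlapped the untreated range. The rises at 0.5 h (1.14), 1 h (1.46) and 4 h (1.06) passed (SE 0.42, adjusted p = 0.0337, 0.00719 and 0.0396), and relative to the median gene they were 1.38, 1.77 and 1.32. At 2 h the change was 0.65 (adjusted p = 0.191). None of the 3 calls held under all alternatives. At 0.5 h the call was lost without replicate 2 (1.27) or 3 (1.08), at 1 h without replicate 2 (1.23), at 4 h without any of the 3 (0.80, 1.04 and 1.35), and at all 3 times with equal totals, where the changes were 0.69, 0.95 and 0.53. Adjusted p ranged from 0.0015 to 0.259 over these alternatives, and the direction was kept in all. The step from 1 to 2 h passed only without replicate 1 (−1.18, adjusted p = 0.0378, range 0.0378 to 0.79).

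After IL-4 Cebpb fell to near the detection limit, with 1/1/2 at 0.5 h, 3/3/1 at 1 h and 2/0/1 at both 2 and 4 h. All 12 values lay below the untreated samples, but these differ by few counts: the untreated mean was 1.67-fold above the floor of 3. The change was −1.71 at 2 and at 4 h (SE 0.46, adjusted p = 0.0132 and 0.0143), and −1.38 and −0.90 at 0.5 and 1 h did not pass (adjusted p = 0.0595 and 0.202), though that at 0.5 h did with equal totals (−1.54, adjusted p = 0.0477) and a pseudocount of 8 (−0.48, adjusted p = 0.0127). Without replicate 2 both later changes were −1.27 and without replicate 3 −1.90, and neither was called then (adjusted p over all alternatives 0.00388 to 0.115).

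Cebpd fell first and then rose after LPS. It lies on chromosome 16 (15887286 to 15889545, + strand). Untreated cells held 19/17/19. LPS samples held 8/7/7, 28/29/35, 66/86/90 and 95/117/100 at the 4 successive times. No LPS group overlapped the untreated samples, the first lying below and the other 3 above. The log2 changes were −1.21, 0.71, 2.07 and 2.44 (SE 0.19, adjusted p = 7.76e-05, 0.00461, 1.41e-07 and 2.09e-08), or −0.97, 1.01, 2.35 and 2.70 relative to the median gene. The steps from 0.5 to 1 h (1.92, adjusted p = 1.01e-06) and from 1 to 2 h (1.36, adjusted p = 2.84e-05) passed, and the last one did not (0.37, adjusted p = 0.194). The rise at 1 h was lost with equal totals (0.15) and without replicate 2 (0.69) or 3 (0.64), with adjusted p from 0.000287 to 0.505 over the alternatives. The fall at 0.5 h and the rises at 2 and 4 h were called in all 10.

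IL-4 lowered Cebpd, to 10/11/12, 6/10/10, 8/5/9 and 3/6/9 at the 4 successive times, all below untreated cells. The changes were −0.69, −1.03, −1.25 and −1.56 (SE 0.32, adjusted p = 0.178, 0.0342, 0.00962 and 0.00243). Without replicate 2 the changes at 1, 2 and 4 h were −1.19, −1.08 and −1.66 and none was called, without replicate 3 those at 1 and 2 h were −1.11 and −1.37 and were not, and without replicate 1 that at 1 h was −0.79 and was not (adjusted p over all alternatives 0.000667 to 0.167). Spidr, a DNA repair gene on the other strand, overlaps the end of Cebpd. It held 450/521/492 in untreated cells and 722/826/773 at LPS 4 h, a rise of 0.67 (adjusted p = 0.000302) as in Cebpd. It also fell after IL-4 at 1, 2 and 4 h (−0.59, −1.0 and −0.9, adjusted p = 0.00103, 8.73e-06 and 2.44e-05). At LPS 1 and 2 h it fell (−0.96 and −0.47, adjusted p = 9.68e-06 and 0.00473) while Cebpd rose. At LPS 0.5 h its change was 0.12 (adjusted p = 0.444) while Cebpd fell. Whether reads were shared was not tested.

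Ratios within a sample were taken of value + 1. The scaling between libraries cancels in them only where both values are well above 1, and after LPS Cebpa was at 0 to 5. Where Cebpa is 0 the ratio is log2 of the other value + 1 and moves with the scaling. The log2 ratio of Cebpb to Cebpa was −0.78, −1.0 and −1.58 in the untreated replicates 1, 2 and 3, and 3.39, 3.7 and 2.81 at LPS 4 h. At IL-4 4 h it was −2.58, −4.25 and −3.0. The LPS samples lay above the untreated range at all 4 times and the IL-4 samples below it at 2 and 4 h, with overlap earlier. The ratio of Cebpd to Cebpa went from 0.74, 0.58 and 0.41 to 5.58, 6.88 and 6.66 at LPS 4 h and to −2.17, −1.44 and −0.68 at IL-4 4 h. The LPS 4 h ratios rest on Cebpa values of 1/0/0 and are neither exact ratios nor bounds.

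**Figure D2:**
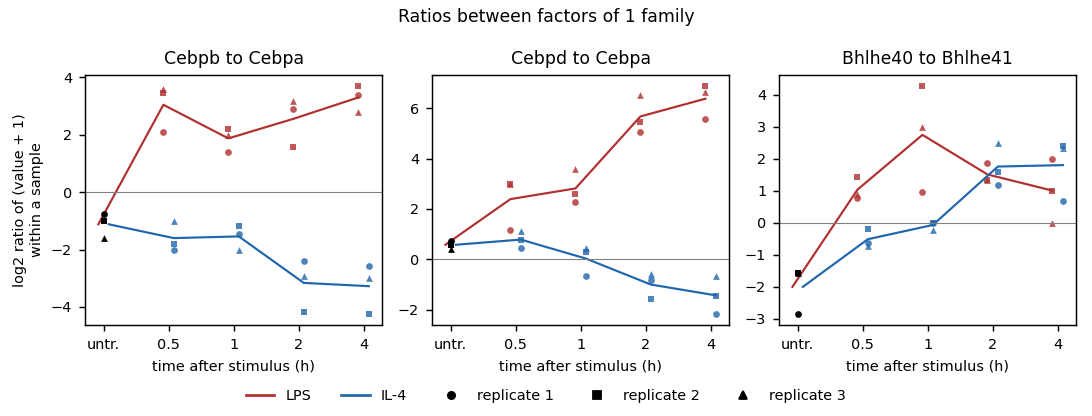
Log2 ratio of (value + 1) within each sample for Cebpb to Cebpa, Cebpd to Cebpa and Bhlhe40 to Bhlhe41 (vertical axes) over time after LPS (red) or IL-4 (blue), with untreated samples in black, marker shapes for replicates and lines through group means. Both C/EBP ratios rose after LPS and fell after IL-4 at 2 and 4 h, whereas the Bhlhe40 to Bhlhe41 ratio lay above untreated in all 8 stimulated groups. The size of any ratio with a low value in it depends on the added 1.

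Spi1, which encodes PU.1, rose within 0.5 h of LPS and stayed up. It spans chromosome 2, 91082405 to 91115759 (+ strand), and held 503/448/474 in untreated cells. LPS samples held 1174/928/890, 1451/1409/1468, 1474/1628/1509 and 1924/1527/1354 at the 4 successive times. All 12 were above the untreated samples. The mean went from 475 ± 27.5 to 1602 ± 292 at 4 h (SD, n = 3), 3.37 times the untreated mean. The changes were 1.06, 1.60, 1.69 and 1.74 (SE 0.13, adjusted p = 7.5e-06, 5.26e-08, 1.8e-08 and 1.32e-08), or 1.3, 1.91, 1.98 and 2.0 relative to the median gene, and all were called under each of 11 alternatives. The step from 0.5 to 1 h passed (0.54, adjusted p = 0.00294) and those after it did not (0.09 and 0.05, adjusted p = 0.627 and 0.854). Without replicate 2 or 3 the first step was 0.51 or 0.45 and was not called (adjusted p = 0.0775 and 0.0739).

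Under IL-4 Spi1 fell early and returned. It held 305/291/287, 417/410/331, 521/462/408 and 499/514/537 at the 4 successive times. The first 2 groups lay below the untreated samples and the later ones overlapped them. The fall at 0.5 h was −0.69 (SE 0.10, adjusted p = 0.000297), called under all 11 alternatives, and that at 1 h was −0.30 (adjusted p = 0.0477), lost without replicate 2 (−0.39) or 3 (−0.20), with adjusted p from 0.00946 to 0.32 over the alternatives. The step from 0.5 to 1 h was 0.38 (adjusted p = 0.0353) and was not called without replicate 2 (0.33) or 3 (0.47).

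Runx1 was the most abundant of the 9 by total value and changed direction after LPS. It spans 224609 bases of chromosome 16 (92601466 to 92826074, − strand). Untreated cells held 5616/5527/5823. LPS samples held 9779/8333/8909, 8730/6729/6577, 3600/2859/3357 and 3191/2683/2794 at the 4 successive times. The first 2 groups were above and the last 2 below all untreated samples. The mean went from 5655 ± 152 to 9007 ± 728 at 0.5 h and 2889 ± 267 at 4 h (SD, n = 3). The log2 changes were 0.67, 0.37, −0.80 and −0.97 (SE 0.13, adjusted p = 0.000431, 0.021, 5.63e-05 and 7.39e-06), and relative to the median gene 0.91, 0.67, −0.51 and −0.71. The later falls were called under all 11 alternatives, whereas the early rise depended on the scaling: with equal totals it was 0.16 at 0.5 h (adjusted p = 0.269) and turned to −0.22 at 1 h (adjusted p = 0.116). At 1 h the call was also lost without replicate 2 (0.41) or 3 (0.46), with adjusted p from 0.00171 to 0.116 over the alternatives. The drop from 1 to 2 h was −1.16 (adjusted p = 2.26e-06). That from 0.5 to 1 h was −0.3 (adjusted p = 0.0613), and without replicate 1 it was −0.37 and passed (adjusted p = 0.00246, range over the alternatives 0.00246 to 0.383).

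After IL-4 Runx1 held 6062/6076/6299, 4229/3834/4044, 4039/4009/3962 and 5942/5253/6243 at the 4 successive times. The samples at 0.5 h lay just above untreated cells (0.12, adjusted p = 0.335), those at 1 and 2 h lay below, and those at 4 h were back among them. The falls were −0.49 and −0.50 (SE 0.07, adjusted p = 0.000287 and 0.00019) and were called under all 11 alternatives. The steps from 0.5 to 1 h (−0.61, adjusted p = 0.000276) and from 2 to 4 h (0.53, adjusted p = 0.001) passed. Without replicate 2 or 3 these steps were −0.58 or −0.59 and 0.61 or 0.47, and none of the 4 was called (adjusted p between 0.0768 and 0.192). The non-coding gene Gm30281 lies inside Runx1 on the other strand and moved the same way at the times given next. It went from 224/200/192 in untreated cells to 367/326/333 at LPS 0.5 h and 77/70/83 at LPS 4 h, and to 138/132/146 at IL-4 2 h. Reads could be shared between the 2 genes. Of the 2 Runx1 promoters in the table, the one at chr16:92826025-92826324 held a CACGTG match and 2 RUNX matches, and the one at chr16:92697280-92697579 held a PU.1 core match.

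Maf lost most of its chromatin RNA within 0.5 h of LPS and regained it by 4 h. It lies on chromosome 8 (115703253 to 115706894, − strand). Untreated cells held 736/520/409. LPS samples held 211/111/125, 289/173/148, 326/179/182 and 845/571/628 at the 4 successive times. The first 3 groups lay below the untreated samples and the last overlapped them. The changes were −1.91, −1.46 and −1.29 (SE 0.31, adjusted p = 0.000105, 0.000759 and 0.00189), or −1.66, −1.16 and −1.0 relative to the median gene, called under all 11 alternatives. At 4 h the change was 0.32 (adjusted p = 0.39), or −0.29 with equal totals. Without replicate 1 it was 0.38 and passed (adjusted p = 0.0218, range over the alternatives 0.0218 to 0.757). The rise from 2 to 4 h was 1.61 (adjusted p = 0.00149), and 1.58 without replicate 2, when it was not called (adjusted p = 0.054). The step from 0.5 to 1 h was 0.44 and passed only without replicate 1 (adjusted p = 0.0121) or with a replicate block.

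IL-4 samples held 458/279/320, 357/253/231, 346/267/210 and 472/265/242 at the 4 successive times. Those at 1 and 2 h lay below the untreated samples, by −0.97 and −1.0 (SE 0.29, adjusted p = 0.0308 and 0.0207), while the F test over the course did not pass (adjusted p = 0.0638). It passed without replicate 1 (adjusted p = 0.00147), with a replicate block (adjusted p = 8.07e-06) and with a mean of at least 50 (adjusted p = 0.0466), and ranged up to 0.432 without replicate 2. In all 12 IL-4 samples Maf was below the untreated sample of the same replicate number. No source used here says that the numbers pair the samples, and the same 3 untreated values serve all 12, so this is only a description. Without replicate 2 the changes at 1 and 2 h were −0.93 and −1.02 and without replicate 3 −1.04 and −1.02, and none was called. Without replicate 1 the changes at 0.5 h (−0.62) and 4 h (−0.86) passed (adjusted p = 0.0112 and 0.00109), as they did with a replicate block (adjusted p = 0.000312 and 2.93e-05). Over the 4 times and all alternatives adjusted p ranged from 2.5e-06 to 0.65. Replicate 1 held the highest Maf value in 9 of 9 groups.

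Bhlhe40 was the only factor whose largest change was a rise under both stimuli. Untreated cells held 3/5/4. LPS samples held 16/34/12, 32/57/47, 10/4/4 and 11/1/2 at the 4 successive times, so that the first 2 groups lay above the untreated samples and the later ones overlapped them. The rises were 2.00 and 3.19 (SE 0.57, adjusted p = 0.00775 and 0.000171), and the return from 1 to 2 h was −2.79 (adjusted p = 0.000861). With untreated values this low the fitted size depends on the pseudocount, and the rise at 1 h ranged from 2.13 to 3.43 over the 10 alternatives. At 4 h the change was −0.25 (adjusted p = 0.727), or 0.01 relative to the median gene. Without replicate 2 the rise at 0.5 h was 1.73 and was not called (adjusted p = 0.0639, range over the alternatives 0.00221 to 0.0639). Without replicate 1 the change at 4 h was −1.16 and passed (adjusted p = 0.0365, range 0.0365 to 1.0), and so did the step from 0.5 to 1 h (1.31, adjusted p = 0.0256), which was 1.19 with all samples (adjusted p = 0.0962). After IL-4 the rise was smaller and was kept, with 10/13/8, 12/14/11, 17/8/16 and 15/20/19 at the 4 times, all above untreated cells. The changes were 1.18, 1.43, 1.51 and 1.94 (SE 0.28, adjusted p = 0.011, 0.00234, 0.00124 and 0.000183). That at 4 h was called under all 10 alternatives. Those at 0.5, 1 and 2 h were lost without replicate 3 (1.34, 1.51 and 1.38), and that at 0.5 h also without replicate 1 (1.04), with adjusted p from 0.00111 to 0.114 over the alternatives. The non-coding gene 0610040F04Rik overlaps its start on the other strand and was too low to be tested.

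Bhlhe41, the paralogue, fell under both stimuli. Its promoter is shown because it holds the E-box that both proteins bind as a class, CACGTG, in capitals at −153 to −148.
Bhlhe41, chr6:145865371-145865670, − strand: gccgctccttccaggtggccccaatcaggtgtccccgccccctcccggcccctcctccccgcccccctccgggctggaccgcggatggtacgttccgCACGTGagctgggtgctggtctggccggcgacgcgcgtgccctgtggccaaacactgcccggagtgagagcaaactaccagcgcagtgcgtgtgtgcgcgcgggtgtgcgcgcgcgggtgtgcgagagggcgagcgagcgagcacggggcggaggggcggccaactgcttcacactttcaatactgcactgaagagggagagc

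Bhlhe41 held 28/17/14 in untreated cells. After LPS it held 9/12/6, 16/2/5, 2/1/1 and 2/0/2 at the 4 successive times. Only the 1 h group overlapped the untreated samples. The changes at 2 and 4 h were −3.12 and −3.25 (SE 0.57, adjusted p = 0.000201 and 0.000141) and were called under all 10 alternatives. With all samples of these groups at or under 3, the fitted size depends on the pseudocount and ranged from −3.73 to −1.54. The untreated mean of 19.7 was 6.56-fold above the floor of 3. At 1 h the change was −1.56 (adjusted p = 0.027) and was lost without replicate 2 (−1.05) or 3 (−1.68), with adjusted p from 0.00298 to 0.161 over the alternatives. It was also lost after median-of-ratios rescaling (−1.33, adjusted p = 0.0657) and with no filter on low values (adjusted p = 0.0836). At 0.5 h the change was −1.04 (adjusted p = 0.143), and it passed with equal totals (−1.51, adjusted p = 0.0236) and a pseudocount of 8 (adjusted p = 0.0386). The step from 1 to 2 h was −1.56 (adjusted p = 0.0386) and was lost without replicate 1 (−1.08) or 3 (−1.54). IL-4 samples held 16/15/14, 12/14/13, 7/2/2 and 9/3/3 at the 4 times. The groups at 2 and 4 h lay below untreated cells, by −2.25 and −1.87 (SE 0.42, adjusted p = 0.00113 and 0.00478), and the step from 1 to 2 h passed (−1.75, adjusted p = 0.0185). Without replicate 2 these were −2.09, −1.72 and −1.46, without replicate 3 the last 2 were −1.85 and −1.51, and none of these was called (adjusted p between 0.0588 and 0.353). The log2 ratio of Bhlhe40 to Bhlhe41 within a sample was −2.86, −1.58 and −1.58 in untreated cells, and every stimulated sample lay above that. It was 0.96, 4.27 and 3.0 at LPS 1 h and 0.68, 2.39 and 2.32 at IL-4 4 h. At LPS 2 and 4 h, where all Bhlhe41 values were at or under 3, the size of the ratio depends on the pseudocount.

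**Figure D3:**
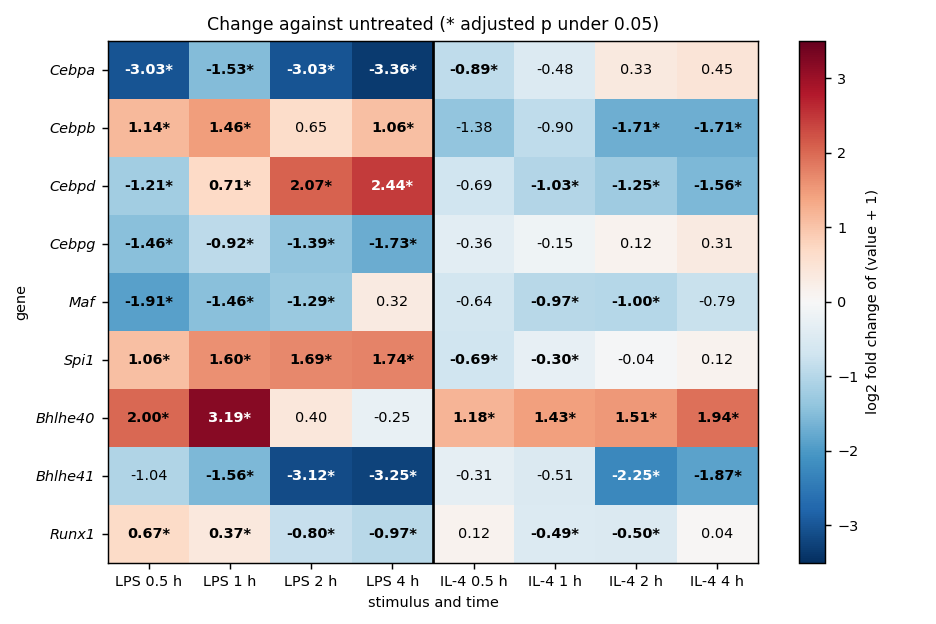
Log2 fold change of (value + 1) of each factor (rows) against untreated cells for LPS and IL-4 at each time (columns), from limma. Red is higher, blue is lower, and bold values with an asterisk passed an adjusted p of 0.05; Cebpa reached −3.36 at LPS 4 h and Bhlhe40 3.19 at LPS 1 h.

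Between neighbouring times after LPS, 3 of 9 factors passed from 0.5 to 1 h against 49.7% of all genes, 5 of 9 from 1 to 2 h against 43.3% and 1 of 9, Maf, from 2 to 4 h against 22.9%. The first count was 1 without replicate 2 or 3, the second 3 without replicate 3 and the third 0 without replicate 2 (1 at an unadjusted p under 0.05, limma). After IL-4 the counts were 2 of 9 against 7.82%, 2 of 9 against 9.40% and 1 of 9, Runx1, against 5.48%, and each was 0 without replicate 2 or 3 (1 to 4 at an unadjusted p under 0.05, limma).

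LPS and IL-4 were then compared directly at each time in 1 fit over all 27 samples. At 0.5 h 6 of 9 factors differed, against 53.8% of all genes, at 1 h 7 of 9 against 64.5%, at 2 h 7 of 9 against 68.6% and at 4 h 9 of 9 against 68.0%. Cebpd at 4 h was 4.0 higher after LPS (SE 0.27, adjusted p = 4e-12), where LPS samples held 95 to 117 and IL-4 samples 3 to 9. At 0.5 h it was −0.52 (adjusted p = 0.108), and passed with equal totals (−0.87, adjusted p = 0.00797). Cebpa was lower after LPS at all 4 times, by −2.13, −1.05, −3.36 and −3.81 (SE 0.43, adjusted p = 0.000181, 0.0358, 2.41e-07 and 3.26e-08). Its difference at 1 h was lost without replicate 2 (−1.14) or 3 (−0.86), with adjusted p of 0.134 and 0.203, after median-of-ratios rescaling (−0.81, adjusted p = 0.119), with a pseudocount of 0.5 (adjusted p = 0.0905) and with no filter on low values (adjusted p = 0.0868). Cebpb was higher after LPS throughout, by 2.36 to 2.77 (SE 0.48, adjusted p between 1.77e-05 and 0.000132). Spi1 was higher by 1.62 to 1.91 (SE 0.12, adjusted p between 2.76e-12 and 3.08e-11), and Cebpg lower by −0.77 to −2.04 (SE 0.25, adjusted p between 1.7e-07 and 0.0103), where that at 1 h was lost after median-of-ratios rescaling (−0.49, adjusted p = 0.111).

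Of the other factors Runx1, Maf and Bhlhe40 changed order over time, while the Bhlhe41 estimate was negative at all 4 times. Runx1 was higher after LPS at 0.5 h (0.55, adjusted p = 0.000126) and 1 h (0.85, adjusted p = 2.27e-07) and lower at 2 h (−0.30, adjusted p = 0.0165) and 4 h (−1.01, adjusted p = 1.16e-08). The difference at 2 h was not called without replicate 2 (−0.20) or 3 (−0.33) or after median-of-ratios rescaling (−0.03, adjusted p = 0.865), and that at 0.5 h not with equal totals (0.16, adjusted p = 0.162). Maf was lower after LPS at 0.5 h (−1.26, adjusted p = 0.00161) and higher at 4 h (1.11, adjusted p = 0.00355), the latter not with equal totals (0.48, adjusted p = 0.164) or without replicate 2 (1.11, adjusted p = 0.0517) or 3 (0.97, adjusted p = 0.0582). At 1 and 2 h the differences were −0.50 and −0.29 (adjusted p = 0.173 and 0.429). They passed with equal totals (−0.97 and −0.92, adjusted p = 0.00851 and 0.0112), without replicate 1 (−0.59 and −0.39, adjusted p = 0.000481 and 0.0125) and with a replicate block (adjusted p = 0.00043 and 0.027). Bhlhe40 was higher after LPS at 1 h (1.77, adjusted p = 0.00275) and lower at 2 h (−1.11, adjusted p = 0.0463) and 4 h (−2.18, adjusted p = 0.000357). Without replicate 3 those at 1 and 2 h were 1.65 and −0.78, without replicate 2 that at 2 h was −1.24, and none of these was called (adjusted p between 0.0631 and 0.36). That at 2 h was also lost after median-of-ratios rescaling (−0.86, adjusted p = 0.129), with no filter on low values (adjusted p = 0.0832) and with a pseudocount of 0.5 (adjusted p = 0.0525). Bhlhe41 differed at 4 h (−1.38, adjusted p = 0.0251), and not without replicate 2 (−1.08) or 3 (−1.87), after median-of-ratios rescaling (−1.19, adjusted p = 0.062), with no filter on low values (adjusted p = 0.0501) or with a pseudocount of 8 (−0.45, adjusted p = 0.107). At 1 and 2 h the differences were −1.05 and −0.86 (adjusted p = 0.0873 and 0.155) and passed with equal totals (−1.47 and −1.26, adjusted p = 0.0153 and 0.0315). That at 1 h also passed without replicate 1 (−1.77, adjusted p = 0.00269) and with a replicate block (adjusted p = 0.0304).

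**Figure D4:**
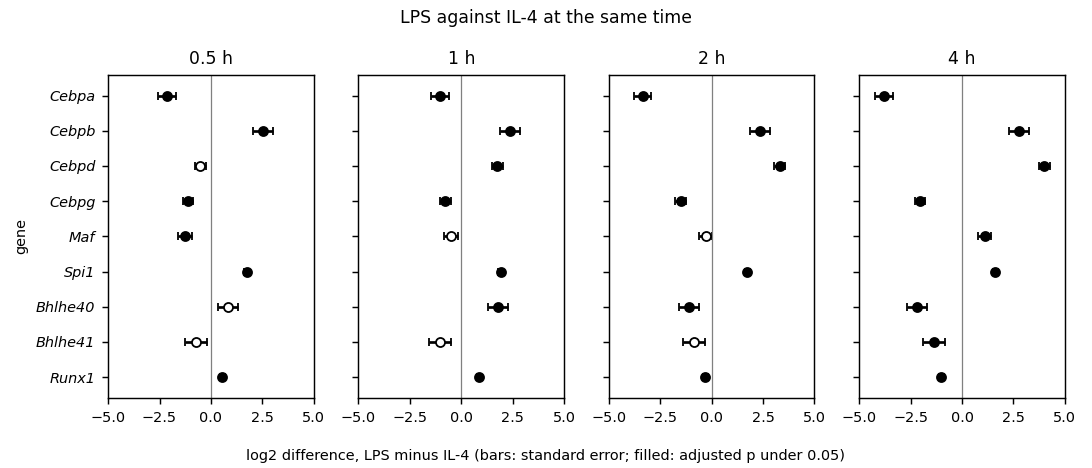
Log2 difference between LPS and IL-4 (horizontal axes, LPS minus IL-4) for each factor at each time, with standard errors as bars and filled points where the adjusted p was under 0.05. Cebpb and Spi1 lie to the right and Cebpa and Cebpg to the left at every time, and Runx1 crosses from 0.55 at 0.5 h to −1.01 at 4 h.

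Relatives and partners of the factors were read from lists written from general knowledge, and are given as counts of genes that passed the F test, by the sign of the largest change. Over the LPS course 32.9% of all tested genes were called with a rise as the largest change and 54.7% with a fall, and over the IL-4 course 19.4% and 20.9%. Among relatives and regulators of the C/EBP family 5 of 11 symbols were tested. After LPS 3 rose and 2 fell, and after IL-4 3 rose. Trib1, a pseudokinase that targets C/EBPα for degradation, went from 24/38/34 normalised read counts to 597/648/631 at LPS 0.5 h (4.27, SE 0.18, adjusted p = 4.38e-11) and to 281/269/314 at IL-4 0.5 h (3.15, adjusted p = 4.54e-06). Nfil3, a bZIP repressor, went from 25/22/17 to 341/184/198 at LPS 1 h and 306/198/204 at IL-4 0.5 h. Ddit3, the C/EBP partner CHOP, fell from 73/82/80 to 22/26/27 at LPS 1 h (−1.61, adjusted p = 2.12e-05). The median log2 change of the tested list genes over the 4 times ran from 0.72 to 2.3 after LPS and from −0.01 to 0.3 after IL-4, against −0.24 to −0.30 and −0.02 to 0.02 for all genes.

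Of the MAF relatives and partners 7 of 11 were tested. After LPS 5 rose and 2 fell (3 and 4 with equal totals), and after IL-4 2 rose and 2 fell (2 and 3). The list medians ran from 0.45 to 0.75 and from −0.13 to 0.02. Maff, a small MAF without an activation domain, went from 6/4/10 to 522/355/394 at LPS 0.5 h (5.85, SE 0.35, adjusted p = 2.39e-09). It met the limit of 10 only with stimulated samples, so its place among the tested genes is no evidence of a rise. Bach2, a partner of small MAFs, fell from 76/111/100 to 9/8/14 at LPS 4 h and to 21/41/42 at IL-4 4 h.

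Of the ETS relatives of PU.1 15 of 17 were tested. After LPS 8 rose and 7 fell (4 and 11 with equal totals, 9 and 6 with median-of-ratios factors), and after IL-4 6 rose and 4 fell. The list medians ran from 0.03 to 0.69 and from 0.02 to 0.08. Etv3, an ETS repressor, went from 206/177/209 to 2490/2821/3221 at LPS 2 h (3.84, SE 0.13, adjusted p = 1.41e-12), and Ets2 from 19/28/24 to 554/498/468 at LPS 0.5 h. Fli1 fell from 2517/2010/2010 to 217/245/240 at LPS 4 h (−3.21, adjusted p = 4.69e-12). Elk3, a MAP kinase target, fell under both stimuli, from 347/378/392 to 64/43/43 at LPS 4 h and 146/147/164 at IL-4 4 h.

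RUNX relatives and partners had 5 of 6 genes tested. After LPS 4 fell, and after IL-4 2 rose and 2 fell, with list medians of −1.6 to −0.73 and −0.28 to 0.04. Runx2 held 423/510/496 in untreated cells, 169/112/95 at LPS 4 h (−1.96, adjusted p = 1.2e-07) and 695/1033/1113 at IL-4 2 h (0.97, adjusted p = 0.0027). Runx3 went from 12/10/19 to 51/42/46 at IL-4 2 h. All 12 genes of the circadian feedback loop, with which BHLHE40 and BHLHE41 act, were tested. After LPS 10 fell and none rose by the largest change (8 and 3 with median-of-ratios factors), and after IL-4 1 rose and 4 fell. Per1 fell from 87/107/117 to 8/9/5 at LPS 2 h (−3.67, SE 0.23, adjusted p = 1.31e-09), Nr1d1, the nuclear receptor REV-ERBα, from 22/20/22 to 1/0/1, and Per2 rose from 15/14/10 to 37/35/38 at IL-4 1 h. The median of the clock list was 0.09 at LPS 0.5 h and −1.42 at 2 h, against −0.24 and −0.29 for all genes, and −0.26 to −0.06 after IL-4.

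Myeloid genes known to depend on PU.1 and C/EBP had 16 of 18 tested. After LPS 9 rose and 7 fell (8 and 8 with equal totals, 11 and 5 with median-of-ratios factors), and after IL-4 6 rose and 7 fell. The list medians ran from −0.06 to 0.83 and from −0.39 to 0.1. Csf1r, the receptor of the macrophage growth factor and a classic PU.1 target, fell from 2052/1814/2048 to 427/501/441 at LPS 2 h (−2.11, SE 0.13, adjusted p = 9.09e-10), at a time when Spi1 was up. Cybb, a subunit of the phagocyte oxidase, rose from 655/662/657 to 10114/11091/10153 at LPS 0.5 h (3.99, adjusted p = 1.48e-13). After IL-4 Msr1, a scavenger receptor, fell from 551/810/865 to 104/128/147 at 2 h and Csf3r rose from 468/334/333 to 946/788/778 at 4 h. Inducible genes linked to C/EBPβ and C/EBPδ had 8 of 11 tested. Those as low in untreated cells as Ptgs2 (1/3/1) met the limit of 10 only through stimulated groups. Their passing is no evidence of a rise, and the counts and medians of this list lean towards genes that rise. After LPS 7 rose, and after IL-4 1 rose and 2 fell. The list median after LPS ran from 3.33 at 0.5 h to 8.07 at 4 h, or from 2.46 to 7.24 with the 6 genes at or under 3 set to that floor, and after IL-4 from −0.2 to 0.26 (0 with the floor). Ptgs2, the inducible cyclooxygenase, held 1/3/1 in untreated cells and 1273/2865/2772 at LPS 4 h, 768-fold above a floor of 3, and Arg1 rose from 6/7/15 to 37/61/85 at IL-4 4 h.

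All 11 MAF-associated macrophage genes were tested. After LPS 5 rose and 5 fell (1 and 10 with equal totals), and after IL-4 2 rose and 8 fell. The list medians ran from −0.44 to 0.31 and from −0.65 to −0.14. Il10 rose from 7/4/11 to 179/188/224 at LPS 1 h (4.65, SE 0.24, adjusted p = 3.54e-10), when Maf was below untreated cells. Like Maff, Il10 met the limit of 10 only with stimulated samples. The scavenger receptor gene Cd163 fell from 430/349/383 to 8/10/10 at LPS 4 h (−5.23, adjusted p = 8.72e-13), when Maf was back in the untreated range. Stab1 fell from 9175/6265/6428 to 2141/1176/1096 at IL-4 2 h (−2.35, adjusted p = 2.69e-05), while Mrc1, the mannose receptor, rose from 2386/1541/1708 to 16253/14498/16212 at IL-4 1 h. Over the IL-4 course the list counts also depended on single replicates. Without replicate 2 they fell to 2 C/EBP relatives, 5 ETS relatives, 0 inducible genes (1 at an unadjusted p under 0.05, limma) and 3 MAF-associated genes, and without replicate 3 to 1 MAF relative, 0 RUNX relatives (2 unadjusted), 2 clock genes and 6 myeloid genes. F13a1 held 3852/1567/1409 in untreated cells, with replicate 1 highest as for Maf, and 76/33/31 at LPS 4 h.

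Within 25 kb of the 9 factors lay 24 other annotated genes, 12 of them tested, and the F test was passed by 11 of these after LPS, against 87.6% of all genes, and by 6 after IL-4, against 40.3%. By the largest change 3 neighbours rose and 8 fell after LPS, and 1 rose and 5 fell after IL-4. In total 4 factors were overlapped by another gene. A further pair of neighbours are named after their values were seen, and both are among the 3 that rose after LPS. A530013C23Rik, a non-coding gene 0.327 kb past the end of Cebpb on the same strand, held 11/20/18 in untreated cells, 73/65/54 at LPS 4 h (1.94, adjusted p = 1.87e-05) and 7/5/5 at IL-4 1 h (−1.35, adjusted p = 0.0148). Mybpc3, 2.385 kb past the end of Spi1 on the same strand, held 7/11/9, then 106/97/91 at LPS 0.5 h (3.32, adjusted p = 4.49e-07) and 40/38/33 at LPS 4 h.

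The genes whose course over the 9 group means was most like that of each factor were found by Pearson r on log2(value + 1), as a description. For Cebpd it was Gm52099 (r = 0.995) and then Trim25 (0.984), for Spi1 Trim36 (0.989), for Cebpg Stambpl1 (0.986) and for Cebpa Hnrnpr (0.983). For Cebpb it was Spata13 (0.971), followed by the C-type lectin receptor Clec4e (0.961). For Bhlhe41 it was Map3k15 (0.970), for Runx1 Gm51671 (0.964) and then Mef2a (0.957), for Bhlhe40 Hspa4 (0.940) and for Maf Stx2 (0.939).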

How the data were processed

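The 27 libraries were of chromatin-associated RNA, prepared by the authors following Smart-seq2. The authors aligned single-end reads to mm10 with TopHat2 2.1.1, removed reads with several hits or in blacklisted regions with bedtools 2.29.2, counted reads per gene over RefSeq GRCm38.p6 and scaled libraries on invariant genes. What was deposited is the scaled read count rounded to a whole number, which is handled here as a score, unlike a raw count. Strand use in counting was not given in the sources used here.

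The test was limma 3.58.1 under R 4.3.3 on log2(value + 1) (mean-variance trend, Benjamini-Hochberg over 13901 genes, threshold 0.05), checked first on simulated data. Tested genes reached 10 in at least 3 samples. Each course used its 3 untreated and 12 stimulated samples, with an F test over 4 times. LPS and IL-4 were compared in a fit of all 27. The study's impulse model was not run. The members and lists were chosen with earlier results of these data known. Named were all 9 members, the 3 genes most like each (Pearson r, some group mean of at least 50, of which the first 1 or 2 are printed), up to 2 rises and 2 falls per list and stimulus (F test and contrast passed, replicates not overlapping untreated), of which some are printed, and overlapping neighbours. Promoters came from RefSeq (GRCm38.p6), the build of the table. The alternatives were pseudocounts of 8 and 0.5, no filter, a mean of at least 50, 2 rescalings, a replicate block, each replicate left out and replicates 2 and 3 averaged. The values of 1 list gene are not reported here.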

Additional observations from a re-analysis of the deposited data

Results flagged for a closer look

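In Cebpb, Cebpd, Spi1 and Runx1, LPS and IL-4 each passed against untreated cells with opposite signs, and the direct comparison of the stimuli passed as well (limma, adjusted over all genes). With opposite signs the direct difference is larger than either change, so its passing is no separate evidence. How many of all tested genes meet the same rule was not counted. For Cebpb at 4 h the changes were 1.06 after LPS and −1.71 after IL-4, a difference of 2.77 (adjusted p = 1.77e-05). Its LPS call was lost when any single replicate was left out, and its LPS samples (20/12/6) overlapped untreated cells (6/5/4). Its IL-4 call was lost without replicate 2 or 3, at values near the floor. For Cebpd from 1 h on they were 0.71, 2.07 and 2.44 after LPS and −1.03, −1.25 and −1.56 after IL-4, differences of 1.74, 3.31 and 4.0 (adjusted p = 5.63e-06, 1.33e-10 and 4e-12). Spi1 differed by 1.75 at 0.5 h and 1.91 at 1 h (adjusted p = 2.48e-11 and 2.76e-12), from 1.06 against −0.69 and 1.60 against −0.30. Runx1 at 1 h differed by 0.85 (adjusted p = 2.27e-07), from 0.37 against −0.49. With equal totals the LPS side of Runx1 at 1 h turned to −0.22. That scaling also lost the LPS calls of Cebpb at 4 h (0.53, adjusted p = 0.259) and of Cebpd at 1 h (0.15, adjusted p = 0.505). Without replicate 2 or 3 the calls at 1 h were lost for Cebpd under both stimuli, Spi1 after IL-4 and Runx1 after LPS. For Cebpd after IL-4 the call at 2 h was lost in the same way, and that at 4 h without replicate 2. Groups of 3 samples were too small for a check of single outlying samples.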

How the results depend on the processing

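Of 162 contrasts of single factors 92 were called, 50 of them under each alternative run and 42 not under some, while 19 others were gained under some. The one reversal was Runx1 at LPS 1 h, −0.22 with equal totals. No other call among these contrasts changed sign. The largest change over a course did so for Runx1 after LPS (0.91 with median-of-ratios factors) and for Cebpg after IL-4 (0.44 without replicate 1). Over the 162, equal totals lost 7 calls and gained 10, median-of-ratios factors lost 9 and no filter lost 17. Counts of factors called that moved by over 1.5 times follow, in the order of the times.

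With a mean of at least 50, which leaves only Cebpg, Maf, Spi1 and Runx1 to be tested, 4 passed the F test under either stimulus, 4, 4, 4 and 3 at the LPS times, 3, 2 and 1 at IL-4 1 to 4 h, 1 and 1 in the first LPS steps, 0 in the IL-4 step from 1 to 2 h (2 at an unadjusted p under 0.05, limma), and 3, 3 and 4 between LPS and IL-4 from 1 h on. In the lists it gave 2 RUNX relatives after IL-4 and 6 and 2 clock genes after LPS and IL-4. With replicates 2 and 3 averaged there were 4 over the IL-4 course, 5 at LPS 1 h, 2, 3 and 2 at IL-4 1 to 4 h, 1 and 3 in the first LPS steps and 0 in each IL-4 step (2, 3 and 1 at an unadjusted p under 0.05, limma). After IL-4 that setting gave 2 MAF relatives, 5 ETS relatives, 1 RUNX relative, 3 clock genes, 8 myeloid genes, 0 inducible genes (1 unadjusted) and 5 MAF-associated genes. Equal totals gave 5 at IL-4 0.5 h. No filter gave 2 at IL-4 1 h, 3 in the LPS step from 1 to 2 h, 1 in each of the first IL-4 steps and 6 MAF-associated genes after IL-4. Median-of-ratios factors gave 1 in the first IL-4 step.

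Leaving out 1 replicate gave 8 to 9 by the F test after LPS and 3 to 9 after IL-4. At the LPS times the ranges were 6 to 8, 3 to 8, 7 to 7 and 6 to 8, at the IL-4 times 1 to 3, 1 to 4, 2 to 6 and 1 to 6, and between the stimuli 6 to 6, 5 to 9, 5 to 8 and 7 to 9. The LPS steps gave 1 to 6, 3 to 5 and 0 to 1, the IL-4 steps 0 to 2, 0 to 2 and 0 to 1. In the lists, in the order of the report, the ranges after LPS were 5 to 5, 7 to 7, 14 to 15, 3 to 4, 9 to 11, 16 to 16, 7 to 8 and 8 to 11, and after IL-4 2 to 3, 1 to 5, 5 to 11, 0 to 5, 2 to 6, 6 to 15, 0 to 3 and 3 to 8. Where a range spans several values its low end came without replicate 2 or 3, and each count of 0 was 1 to 4 at an unadjusted p under 0.05 (limma). The cause was not tested.

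Same-numbered samples deviated together with a median r of 0.308 (0.0897 to 0.713), over 0.1 in 106 of 108 pairs. Deviations were taken from the group mean and so cancel within a group. A positive r between same numbers then brings a negative one between different numbers, whose median was −0.309. Of 27 samples 20 correlated best with their own number. The main fit had no replicate block because no source used here says that the numbers pair the samples. A shared effect of the replicate number was therefore not modelled in it. With a replicate block 6 factors were called at IL-4 0.5 h and 5 in the LPS step from 0.5 to 1 h, no call was lost and 11 were gained. Depth is unknown, and values at or under 3 limit Cebpa, Cebpb and Bhlhe41. Low untreated values also limit Bhlhe40.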
